A study of Mus musculus with 6 samples.

Results

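The genes described here are 8 genes that mark or drive the differentiation of plasma cells, measured in tumors of the mouse hepatoma line Hepa1-6. Members were the genes Mzb1, Pou2af1, Xbp1, Prdm1, Irf4, Tnfrsf17, Tnfrsf13b and Sdc1. They were found as the probes printed under one of these symbols or a former symbol of it, and Mzb1 stood on the array under its older RIKEN name. All 8 genes were found, among 27573 genes of the array, on 9 of 41174 probes and 18 of 43379 spots, since Tnfrsf13b had 2 probes and the Mzb1 probe was printed 10 times. In the study, 10000000 Hepa1-6 cells grown in medium with serum were injected subcutaneously in female C57Bl/6 mice. Tumors were taken at day 10 (tumors 302, 307 and 312, n = 3) or day 15 (tumors 303, 313 and 318, n = 3). No drug or gene change is given for either group, and the age of the mice is not stated in the labels. Total RNA of each tumor was labelled with Cy5 and hybridised with Cy3-labelled total RNA described as blood of an untreated female C57Bl/6 mouse. The labels tie no tumor to a named mouse, and the p-values measure only the spread between these samples, which may be technical in part.

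Plasma cells are the antibody-secreting end stage of the B cell lineage. As background, the transcription factors IRF4 and BLIMP-1 (encoded by Prdm1) drive a B cell toward secretion, XBP1 enlarges the secretory machinery of the endoplasmic reticulum, and the coactivator POU2AF1 works with octamer-binding factors at immunoglobulin genes. The receptors BCMA (Tnfrsf17) and TACI (Tnfrsf13b) bind the ligands APRIL and BAFF, MZB1 is an endoplasmic reticulum protein that helps antibody assembly, and syndecan-1 (Sdc1, CD138) is a heparan sulfate proteoglycan used to stain plasma cells. Several of these genes also serve other cells: Xbp1 acts in hepatocytes, Sdc1 in epithelia, and Irf4 and Prdm1 in T cells and myeloid cells. In RNA of whole tumors, fewer cells of a type and less RNA per cell cannot be told apart.

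The share of spots well above background ran from 52.4% to 58.5% in Cy5 and from 47.5% to 52.8% in Cy3 over the arrays. The 3 arrays of day 10 lay on 1 slide and those of day 15 on another, so slide and day cannot be told apart. On the array of tumor 312 an area had lost signal, and it was located from the reference dye. It held 19.9% of the spots, and the lowest correlation of its Cy3 signal with another array was 0.721, against 0.992 outside it (r across spots, which are not replicates). This contrast follows in part from choosing the area by low Cy3 signal. The only spot of Xbp1, the only spot of Irf4 and 2 of the 10 spots of Mzb1 lay in this area. The tumor dye of the Xbp1 and Irf4 spots was not well above background there either (intensities 114 and 113). The values of Xbp1 and Irf4 in tumor 312 are therefore given with and without the lost area. Among the markers of the sampled tissue, Afp and Alb were well above background in Cy5 on all 6 arrays. The median ratio of hepatocyte and hepatoma markers was -2.31 in tumor 313 and 1.96 to 3.45 in the others. Some markers went against the description of the reference as blood. Of 4 erythroid markers tested, 3 were higher in tumor than in the reference, among them Hba-a1 (3.76) and Alas2 (2.81), genes of hemoglobin and heme synthesis. Krt5, a keratin of skin, and Hnf4a, a factor of hepatocytes, were higher in the reference (log2 ratios -1.75 and -1.92). The reference signal of both was well above background on 6 of 6 arrays. Each was the only gene of its list lower in tumor by limma (adjusted p under 0.05, log2 ratio of at least 1). By the same rule 1 of 5 skin markers and 7 of 12 hepatocyte and hepatoma markers were higher in tumor. What the reference RNA held was not tested, and every ratio below is relative to it. The 4 genes named were picked with these ratios in view.

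All values below are log2 ratios of tumor (Cy5) over reference (Cy3), unless a dye is named. Mzb1 and Pou2af1 had higher ratios in all day 15 tumors than in any day 10 tumor, and Tnfrsf17, Tnfrsf13b and Irf4 did so in 2 of 3 (tumors 303 and 313). Prdm1 and Sdc1 had lower means at day 15, and Xbp1, Irf4 and Tnfrsf13b differed by less than their error once the lost spots were left out. Of the 8 genes, 0 passed limma's test between the days with Benjamini-Hochberg adjustment over all probes (threshold 0.05), where 0.0570% of all 15802 genes tested did and 0.0127% were higher. At an unadjusted p under 0.05, 2 of 8 were higher at day 15 (2.43% of all genes) and 0 lower (1.58%). That count ran from 1 with the scanner's processed signals, where Pou2af1 missed it, to 4 with array position as a block. There Irf4 (unadjusted limma p 0.0200, with its lost spot of tumor 312 included) and Tnfrsf17 (0.0431) joined. Over all genes, such higher calls numbered 384 in the main fit, 467 with the processed signals and 667 with the block. With 1 tumor left out, Prdm1 (unadjusted limma p 0.0235 without 318) and Sdc1 (0.0178 without 313) were lower, as both were after median centring, which lowers the median of all genes to -0.30. The ratios of the days did not overlap, with day 15 higher, in 2 of 8 (5.06% of all genes), and with day 15 lower in 0 of 8 (3.79%). The median difference of the 8 genes was 0.65, against 0.02 for all genes, but 0.22 with the lost spots left out and 0.13 without tumor 312. In the fit with all spots, 6 of 8 had a higher mean at day 15, as did 55.0% of all genes. All 8 had passed the filter for this test, which asks for Cy5 signal well above background on 3 or more arrays.

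**Figure D1:**
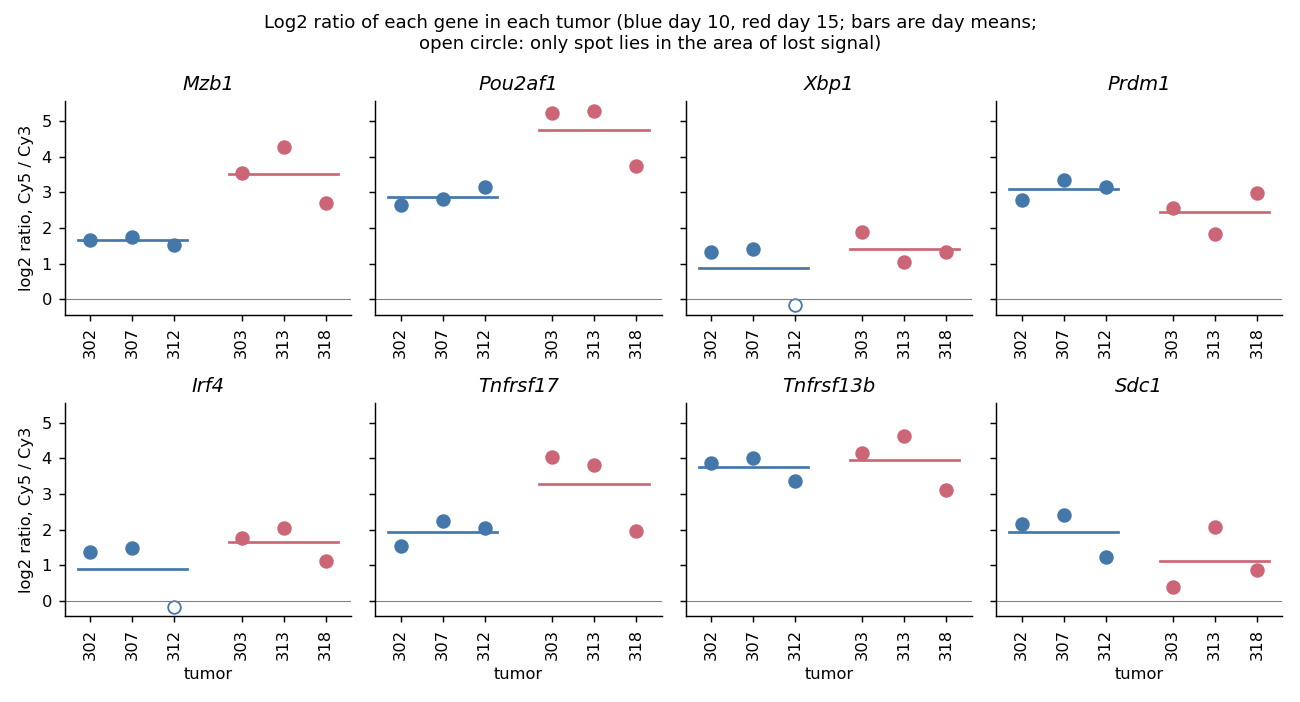
Log2 ratio of tumor (Cy5) over reference (Cy3) of the 8 genes in each tumor, with day 10 in blue, day 15 in red and bars at the day means (n = 3 each). The open circles mark tumor 312 for Xbp1 and Irf4, whose only spots lay in the area of lost signal. Mzb1 and Pou2af1 show no overlap between the days.

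Pou2af1, the coactivator of octamer-binding factors, had ratios of 2.63, 2.81 and 3.14 in day 10 tumors 302, 307 and 312. In day 15 tumors 303, 313 and 318 they were 5.23, 5.29 and 3.74. Tumors 303 and 313 were far above day 10, and tumor 318 lay between. The means were 2.86 ± 0.26 at day 10 and 4.76 ± 0.88 at day 15 (SD, n = 3 each), a difference of 1.89 (SE 0.43, 95% interval 0.85 to 2.93) or 3.72-fold. Its unadjusted p was 0.00387 and its limma adjusted p was 0.810, the 86th smallest p of all genes. Without tumor 318 the difference was 2.40 with a limma adjusted p of 0.0549, and over all alternatives the adjusted p ran from 0.0549 to 1. In the tumor dye the mean intensity of the spot, before any correction, was 705, 734 and 797 at day 10 and 3737, 4333 and 1538 at day 15, in the same order of the 6 tumors as the ratios. With the scanner's processed signals and with the authors' deposited values the difference was smaller, 0.53 (SE 0.23, limma adjusted p 0.983 and 0.982).

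The start site of Pou2af1 is shown because the DNA element read by XBP1, another of the 8 genes, was found there, and that of Xbp1 itself is set beside it. Both are the 250 bases before the annotated start (RefSeq, build GRCm38.p6, plus strand), at chr9:51213440-51213689 for Pou2af1 and chr11:5520391-5520640 for Xbp1. Capitals mark the match to TGACGTGG, the unfolded protein response element, and a sequence without capitals had no match to any element searched:
Pou2af1: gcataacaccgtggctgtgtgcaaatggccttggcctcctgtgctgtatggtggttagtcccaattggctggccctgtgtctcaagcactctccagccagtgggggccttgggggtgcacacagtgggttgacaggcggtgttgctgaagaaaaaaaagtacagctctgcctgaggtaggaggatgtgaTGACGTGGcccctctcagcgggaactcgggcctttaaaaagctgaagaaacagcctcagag
Xbp1: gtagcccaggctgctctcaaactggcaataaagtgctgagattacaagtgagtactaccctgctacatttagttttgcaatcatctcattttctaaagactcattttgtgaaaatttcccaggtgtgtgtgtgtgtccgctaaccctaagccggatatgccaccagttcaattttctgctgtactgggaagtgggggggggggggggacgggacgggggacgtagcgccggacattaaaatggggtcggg
The match in Pou2af1 began 61 bases before the start. Of 7 members in the promoter table (windows of 250 bases before to 50 after the start), 1 held TGACGTGG on either strand, against 0.676% of 32851 windows. The octamer ATGCAAAT (1.74% of all windows), the cyclic AMP element TGACGTCA (1.79%), the endoplasmic reticulum stress element (CCAAT and CCACG at their fixed spacing, 0.119%) and the joint element of ETS factors and IRF4 (GGAA and GAAA at theirs, 2.72%) were found in 0 of 7. The interferon response element (a pair of GAAA, 3.44%) was in 1 of 7, Tnfrsf17. The start-site element TATAAA (13.6%) was in 2 of 7, Irf4 and Tnfrsf17. A match describes letters only, and binding was not measured.

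Xbp1, the regulator of secretory capacity, differed little among the tumors in which its spot was intact. Its ratio was 1.33, 1.42 and -0.16 in tumors 302, 307 and 312, and 1.88, 1.05 and 1.33 in tumors 303, 313 and 318. In tumor 312 neither dye was well above background, with intensities of 114 in Cy5 and 119 in Cy3 against at least 4133 and 3770 on the other arrays. With this spot in, the day difference was 0.55 (SE 0.46, limma adjusted p 1). With it left out, which removes tumor 312 from the fit for this gene, it was 0.04 (SE 0.27, limma adjusted p 1). The lowest Cy5 intensity on the intact arrays, 4133, was that of tumor 313, in which hepatoma markers were low; their part in this value was not tested.

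Irf4, a factor needed for plasma cell formation, was dim. Its ratio was 1.37, 1.496 and -0.16 in tumors 302, 307 and 312, and 1.77, 2.06 and 1.13 in tumors 303, 313 and 318. The probe was well above background in Cy5 on 4 of 6 arrays, missing in the damaged spot of tumor 312 (intensity 113) and in tumor 318 (237). The day difference was 0.75 (SE 0.48, limma adjusted p 1) with all tumors and 0.22 (SE 0.30, limma adjusted p 1) without the damaged spot. The days overlapped, with tumor 318 below tumors 302 and 307.

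Prdm1, which encodes BLIMP-1, a repressor of the B cell program, ran the other way from Mzb1 and Pou2af1. Its ratio was 2.79, 3.34 and 3.16 in tumors 302, 307 and 312, and 2.56, 1.83 and 2.98 in tumors 303, 313 and 318. Tumor 313, the highest for Mzb1 and Pou2af1, was the lowest for Prdm1, and tumor 318 lay inside the day 10 range. The means were 3.098 ± 0.282 and 2.46 ± 0.59 (SD, n = 3 each), a difference of -0.64 (SE 0.32, 95% interval -1.41 to 0.12, limma adjusted p 1). The reference dye of this spot was steady, between 287 and 325 on the 6 arrays, so the tumor dye carried the spread, from 702 in tumor 313 to 2312 in tumor 307.

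**Figure D2:**
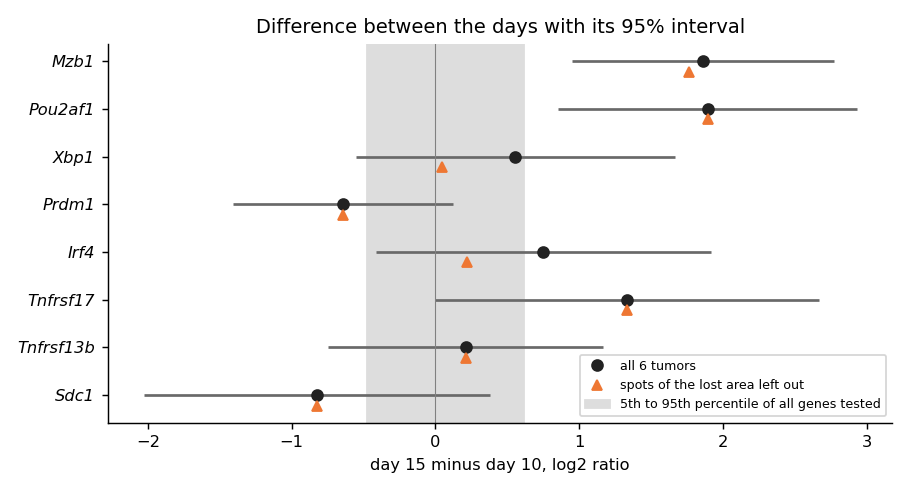
Difference of the day means (day 15 minus day 10) in log2 ratio for each gene, with the 95% interval of limma's fit on 6 tumors. Orange triangles leave out the spots of the lost area and the grey band spans the 5th to 95th percentile of all genes tested (-0.47 to 0.62). The intervals of Mzb1 and Pou2af1 lie above 0, and Xbp1 and Irf4 move toward 0 when the damaged spots are left out.

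Of the receptors, Tnfrsf17 (BCMA), a survival receptor of mature plasma cells, was higher in part of the day 15 group. Its ratio was 1.53, 2.26 and 2.04 in tumors 302, 307 and 312, and 4.04, 3.83 and 1.97 in tumors 303, 313 and 318. Tumors 303 and 313 stood clear of all others, while tumor 318 lay within the day 10 range. The difference was 1.34 (SE 0.56, 95% interval -0.00025 to 2.67, limma adjusted p 1). Without tumor 318 it was 1.99 (limma adjusted p 0.134), and without tumor 303 it was 0.96. The tumor-dye intensity was 347, 451 and 364 at day 10 and 1165, 972 and 399 at day 15.

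Tnfrsf13b (TACI), the receptor shared with less mature B cells, had a smaller difference between the days. The brighter of its probes gave 3.88, 4.01 and 3.37 in tumors 302, 307 and 312, and 4.14, 4.62 and 3.12 in tumors 303, 313 and 318. Tumors 303 and 313 were again above all day 10 tumors, and tumor 318 was the lowest of the 6. The difference was 0.21 (SE 0.40, 95% interval -0.75 to 1.17, limma adjusted p 1), which leaves room for a change of up to 2.25-fold. The other probe, to the RefSeq transcript, was not well above background in either dye on any array, with ratios of 0.03 to 0.29, so the gene's value rests on the probe designed to a lung cDNA clone.

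Mzb1, the chaperone of antibody assembly, had the smallest p of the 8 genes. Its ratio was 1.65, 1.76 and 1.54 in tumors 302, 307 and 312, and 3.55, 4.27 and 2.71 in tumors 303, 313 and 318. The day 10 tumors lay close together (mean 1.65 ± 0.11, SD, n = 3), the day 15 tumors spread more (3.51 ± 0.79, SD, n = 3), and the groups did not overlap. The difference was 1.86 (SE 0.38, 95% interval 0.95 to 2.77) or 3.63-fold, with an unadjusted p of 0.00217 and a limma adjusted p of 0.641, the 60th smallest p of all genes. Over all alternatives it stayed between 1.16 and 2.36, with limma adjusted p from 0.0985 (without tumor 318) to 1; it was 1.18 with the scanner's processed signals.

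The 10 spots of the Mzb1 probe give the error of the measurement within an array. Their SD was 0.14 and 0.13 on the arrays of tumors 302 and 307, 0.70 on that of tumor 312, and 0.30, 0.33 and 0.46 on those of tumors 303, 313 and 318. On the array of tumor 312 the 2 spots inside the lost area averaged 0.44 and the 8 outside it 1.81. With the former left out the day difference was 1.77 (SE 0.37, limma adjusted p 0.596). Every spot of the arrays of tumors 303 and 313 exceeded every spot of the day 10 arrays, the lowest there being 2.80 and 3.34 and the highest at day 10 being 2.12. On the array of tumor 318, 9 of 10 spots did, with 1 spot at 1.47 and the rest from 2.66 upward.

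**Figure D3:**
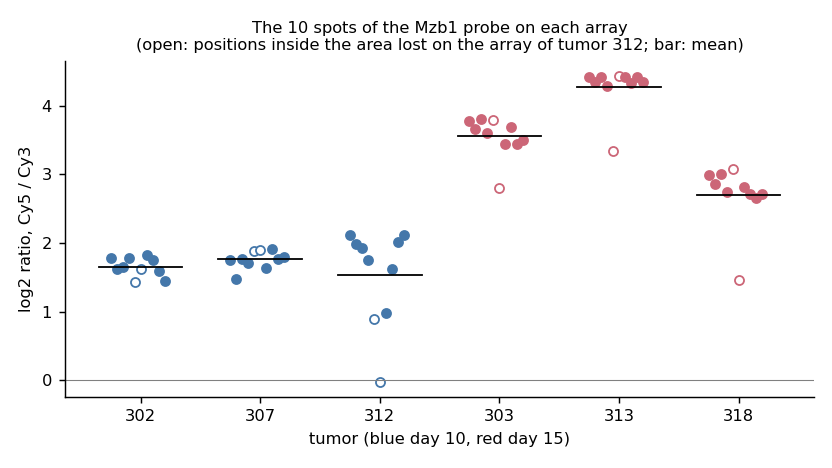
Log2 ratio of each of the 10 spots of the Mzb1 probe on the 6 arrays, day 10 in blue and day 15 in red, with the mean of each array as a bar. Open circles are the 2 print positions that lay in the lost area of the array of tumor 312; there they averaged 0.44 against 1.81 for the 8 other spots.

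Sdc1, the proteoglycan used as a plasma cell stain, did not follow Mzb1 or Pou2af1. Its ratio was 2.16, 2.42 and 1.23 in tumors 302, 307 and 312, and 0.39, 2.09 and 0.86 in tumors 303, 313 and 318. Tumor 303, among the highest for Tnfrsf17 and Pou2af1, was the lowest for Sdc1, and tumor 313 lay inside the day 10 range. The difference was -0.82 (SE 0.50, 95% interval -2.03 to 0.38, limma adjusted p 1). Its spot was bright in both dyes, with Cy5 from 3478 to 15680 and Cy3 from 3795 to 5496. In tumor 313, where hepatoma markers were lowest, Sdc1 was not low; the part of other cells in its signal was not tested.

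The dyes were then read apart, since the reference had the same description on every array. In the tumor dye alone, after quantile normalization, Mzb1 was higher at day 15 by 2.36 (SE 0.64) and Pou2af1 by 1.98 (SE 0.58) in log2 signal. With limma, 0 of 8 genes passed after adjustment (0% of all genes) and these 2 had an unadjusted p under 0.05 (0.943% of all genes higher), 0.00867 and 0.0123. The lost spots of tumor 312 stayed in this normalization, and intact spots of that array came out high. For Pou2af1 the Cy5 intensities 705 and 797 in tumors 302 and 312 became log2 signals of 8.98 and 10.22. In Cy3 the 325 and 317 of Prdm1 there became 7.97 and 8.79. The quantile-normalized differences and shares of both dyes carry this shift. The reference dye of Mzb1 and Pou2af1 moved the same way. For Mzb1 its intensity was 166, 163 and 200 on the arrays of tumors 302, 307 and 312, and 297, 624 and 270 on those of tumors 303, 313 and 318. For Pou2af1 it was 130, 136 and 139, then 198, 236 and 152. In each gene the 3 day 15 arrays had a higher mean reference intensity than any day 10 array, in the order of the tumor dye for Pou2af1. For Mzb1 the means of all day 15 arrays and of the array of tumor 312 were raised by single bright spots. On the array of tumor 303 a spot stood at 574 and the others at 222 to 295. On the array of tumor 313 a spot stood at 1346 and the others at 428 to 635. On the array of tumor 318 a spot stood at 902 and the others at 168 to 224. On that of tumor 312 spots stood at 404 and 341 and the others at 131 to 185. With no filter on dim probes, the log2 reference signal was higher at day 15 by 0.95 for Mzb1 (SE 0.39, unadjusted p 0.0540) and by 0.55 for Pou2af1 (SE 0.20, unadjusted p 0.0356), both with a limma adjusted p of 0.679. Of the 3 genes with a reference spot well above background on at least 3 arrays (Xbp1, Prdm1 and Sdc1), 0 passed in Cy3, also without adjustment, where limma called 0% of 13927 genes after adjustment and 0.165% higher before it. The cause of the brighter reference spots was not tested.

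**Figure D4:**
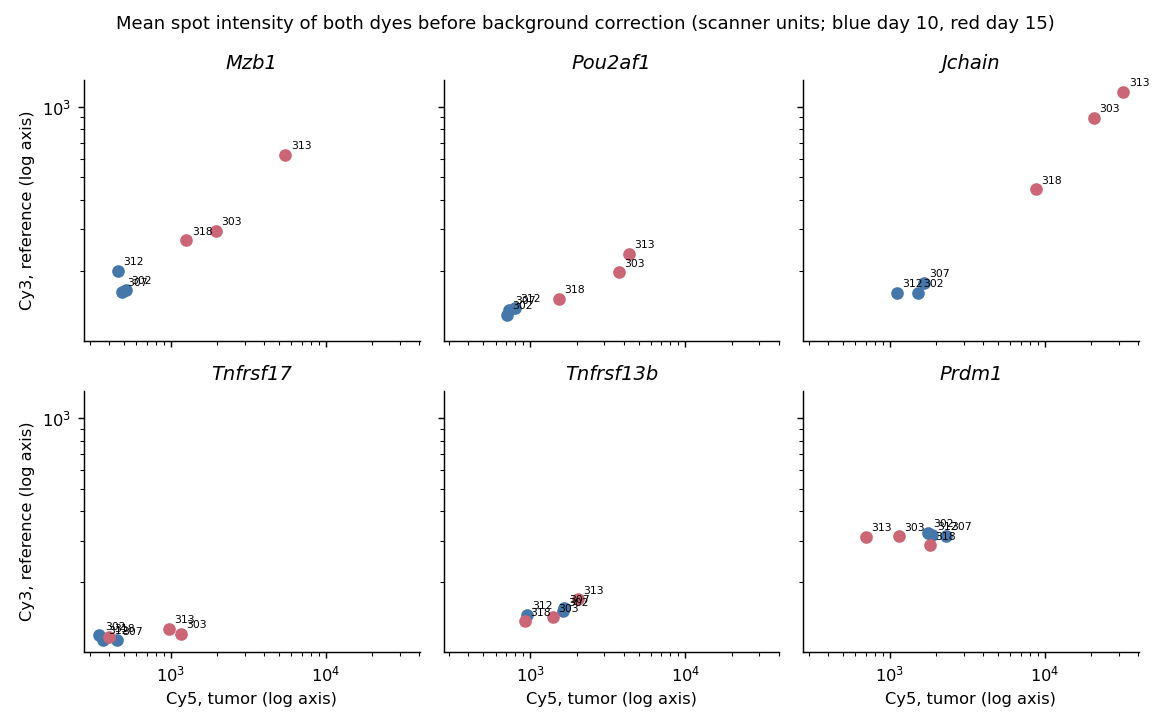
Mean spot intensity in the tumor dye (Cy5, x axis) and the reference dye (Cy3, y axis), both log axes in scanner units before background correction, for 6 genes; each point is an array, blue for day 10 and red for day 15. For Mzb1, Pou2af1 and Jchain the reference spot is brighter on the day 15 arrays, while for Prdm1 it stays between 287 and 325.

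Against the reference, all 8 genes were higher in tumor by limma (adjusted p under 0.05 and a log2 ratio of at least 1, mean of both days against 0), where 25.5% of 16305 genes were higher and 9.78% lower. The filter asked for signal on 3 or more arrays in either dye. Mzb1, Pou2af1, Irf4, Tnfrsf17 and Tnfrsf13b met it in the tumor dye only, so the direction of their calls was largely set by the filter. The direction of calls against this reference depends on the scaling: 72.3% of all calls were higher here, 41.3% after median centring without loess, and 57.9% with the scanner's processed signals. The median of all genes moved from 0.22 to -0.34 with median centring. Beside these medians, the median ratio of the 8 genes was 2.60. The spread among samples of the reference RNA is not part of this test.

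The size of these ratios is limited by the dim reference. Prdm1, above background in Cy3 on all 6 arrays, was higher by 2.78 (SE 0.16) or 6.85-fold, and Sdc1, likewise measured on all 6, by 1.53 (SE 0.25) or 2.88-fold. Xbp1 was higher by 1.14 (SE 0.23), and by 1.40 (SE 0.14) without its damaged spot. It had a ratio under 1 after median centring (0.41), as did Sdc1 (0.64), so that 6 of 8 genes passed there. Xbp1 also fell under 1 with the scanner's processed signals (0.91) and the authors' deposited values (0.92). Mzb1 (2.58, SE 0.19) and Pou2af1 (3.81, SE 0.22) were above background in Cy3 on 2 of 6 arrays, those of tumors 303 and 313, so their sizes are less secure.

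Tnfrsf17, Tnfrsf13b and Irf4 were dim in the reference on all 6 arrays (not well above background) and have only a bound, from single-dye signals after loess and Aquantile normalization. The bound sets the tumor signal against the lowest reference signal that counts as above background on the array. Where the gene's own reference signal was higher than that, its own was used. By its brighter probe, Tnfrsf13b was at least 11.8-fold higher in tumor (limma adjusted p 8.97e-06 for its ratio). Its other probe was not well above background in either dye. Tnfrsf17 was at least 4.18-fold higher (limma adjusted p 1.75e-04). Irf4 was at least 1.56-fold higher (limma adjusted p 0.00249), with the tumor dye above background on 4 of 6 arrays; its ratio was under 1 (0.95) without background correction. All arrays had tumor in Cy5, and a probe's dye bias cannot be told apart from these ratios.

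The genes around the 8 members were then read as lists, with counts and medians and no test of a list. Over all genes, 55.0% had a higher mean at day 15. At an unadjusted limma p under 0.05, 2.43% were higher and 1.58% lower. Against the reference 25.5% passed as higher and 9.78% as lower. Plasma cell and antibody secretion genes gave a median difference of 0.16 between the days over 14 genes tested of 16 listed. Of these 13 had a higher mean at day 15, or 11 with the lost spots left out. With limma, 0 passed after adjustment, and 3 had an unadjusted p under 0.05, all higher. Jchain, the chain that joins secreted antibodies, was at 3.57, 3.72 and 3.42 in tumors 302, 307 and 312, and at 5.57, 6.00 and 4.80 in tumors 303, 313 and 318. Its tumors stood in the same order as those of Mzb1 with all spots, lowest in 312 and highest in 313, with no overlap of the days. Over the Mzb1 spots outside the lost area, tumor 312 was instead the highest of day 10 (1.81, against 1.68 in 302 and 1.73 in 307). The Jchain difference was 1.89 (SE 0.31, limma adjusted p 0.324). Its reference intensity also differed, at 161 to 178 on day 10 arrays and 446 to 1160 on day 15 arrays. Derl3, an endoplasmic reticulum degradation gene, was at 1.29 (SE 0.42) and Cd93, a receptor of endothelium and plasma cells, at 0.57 (SE 0.17), both with a limma adjusted p of 1. Against the reference 12 of 14 passed as higher, the largest being Cd93 (5.76), Cd38 (5.12), an ectoenzyme, and Ighm (4.95), the heavy chain of IgM.

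Transcription factors of B cells and plasma cells were nearly level between the days, with a median difference of 0.16 over 20 genes tested of 21 listed. A higher mean at day 15 was found in 16, or in 15 with the lost spots left out. With limma, 0 passed, also without adjustment. The smallest p-values were those of Foxo1 (0.60, SE 0.39), whose probe was among the lost spots of tumor 312, Ebf1 (0.55, SE 0.40), an early B cell factor, and Mef2c (0.48, SE 0.35). Against the reference 12 passed as higher and 1 as lower, the B cell identity factor Pax5 (-2.04, chosen after its value was seen). The largest were Batf (4.53), a partner of IRF4, Ciita (3.84), the activator of MHC class II genes, and Ikzf1 (3.69), which encodes Ikaros.

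In the pathway of BAFF and APRIL, the ligands of TACI and BCMA, 13 of 19 genes tested of 22 listed had a higher mean at day 15 (median 0.11). With the lost spots left out 12 did. With limma, 0 passed after adjustment. The BAFF gene Tnfsf13b was at 3.50, 3.74 and 3.43 at day 10 and 3.70, 4.40 and 3.24 at day 15, overlapping and with a difference of 0.23 (SE 0.30). The BAFF receptor gene Tnfrsf13c was at 0.60, 0.81 and 1.002 in tumors 302, 307 and 312, and 1.52, 2.21 and 1.10 in tumors 303, 313 and 318. These did not overlap, and its difference of 0.80 (SE 0.30) had an unadjusted p of 0.0328 and a limma adjusted p of 1. Bcl2l1, the gene of the survival protein BCL-XL, was at -0.32 (SE 0.13, unadjusted p 0.0423), with its probe also among the lost spots, and Rela, an NF-kB subunit, at 0.21 (SE 0.17). Cxcl12 (6.07), the chemokine that holds plasma cells in their niche, and Il21r (3.11, among the lost spots), the receptor of a cytokine of follicular helper T cells, were with Tnfsf13b (3.67) the largest of the 10 genes that passed as higher against the reference.

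Genes of XBP1 and the secretory pathway split in direction. All 42 listed were tested, of which 25 had a higher and 17 a lower mean at day 15, with a median difference of 0.07. With the lost spots left out 24 were higher and 18 lower. With limma, 0 passed after adjustment, and at an unadjusted p under 0.05 2 were higher and 2 lower. Creld2, an endoplasmic reticulum stress gene, was at 0.73 (SE 0.15, limma adjusted p 0.826, from 5 tumors, since the spot of tumor 302 was an outlier), and Manf, a secreted stress protein, at 0.35 (SE 0.13). Herpud1, a membrane protein of endoplasmic reticulum degradation, was at -0.46 (SE 0.17) and Erlec1, a lectin of the same compartment, at -0.38 (SE 0.13). The medians of the list per tumor were 0.30 to 0.32 at day 10 and 0.38 to 0.47 at day 15. The largest ratios against the reference were those of Herpud1 (1.77), Sdf2l1 (1.77), with its probe in the lost area, and Sel1l (1.68); 10 of 42 passed as higher.

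Of 17 genes of syndecans and heparan sulfate, the family and modifying enzymes of Sdc1, 10 had a higher mean at day 15 (median 0.05), and 7 with the lost spots left out (median -0.03). With limma, 0 passed after adjustment, and 1 was higher and 1 lower without it. Sdc4, another syndecan, was at -0.82 (SE 0.30) and Sulf2, a sulfatase of heparan sulfate, at 0.76 (SE 0.28), while Ndst1, a sulfotransferase, was at 0.20 (SE 0.14). Against the reference 8 passed as higher, led by Sulf1 (4.35), Sdc3 (4.07) and the heparanase gene Hpse (3.43).

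**Figure D5:**
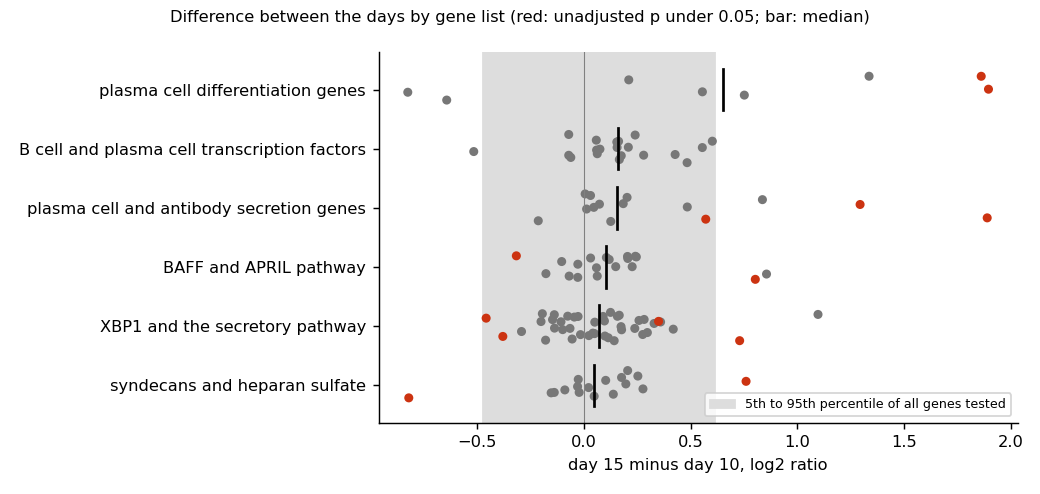
Difference between the days (day 15 minus day 10, log2 ratio) of each gene tested in the 8 genes and in 5 related lists, with the median of each list as a bar and the 5th to 95th percentile of all genes in grey. All spots are used: the 8 genes have a median of 0.65, which is 0.22 with the lost spots of tumor 312 left out, and the other lists lie between 0.05 and 0.16, or -0.03 and 0.16 without those spots.

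Markers of other cells moved between the tumors as well. B cell markers were measured in 8 of 12 genes, with a median difference of 0.63 (0.47 with the lost spots left out) and 7 higher at day 15. Their median per tumor was 1.31 to 1.87 at day 10 (tumor 312 at 1.31, or 1.78 without its 2 lost genes) and 1.65, 1.73 and 3.13 in tumors 318, 303 and 313. Blk, Cr2 and Fcer2a were not well above background in any tumor, and Cd79a in 1. Ms4a1 (CD20), with its probe in the lost area, had a difference of 0.96 (SE 0.19, limma adjusted p 0.606). T cell markers had a median difference of 0.36 over 12 genes of 15 (11 higher; medians per tumor 3.01 to 4.69 at day 10, the lowest in tumor 312, where it was 4.13 without its 4 lost genes, and 4.02 to 4.91 at day 15; Cd4 and Foxp3 not above background). Macrophage markers had 0.18 over 11 of 11 genes (11 higher; 4.29 to 4.44 and 4.28 to 4.93). Dendritic cell markers had -0.02 over 8 of 10 genes (4 higher; 1.77 to 2.11 and 1.53 to 2.14). Endothelial markers had 0.75 over 8 of 8 genes (8 higher; 2.86 to 3.41 and 3.59 to 4.34), fibroblast markers 0.52 over 9 of 9 (9 higher; 5.77 to 6.28 and 6.11 to 6.93) and erythroid markers 0.55 over 4 of 6 (4 higher; 2.85 to 3.01 and 3.52 to 3.87; Klf1 not above background). Skin epithelium markers had 0.09 over 4 of 10 (3 higher; -0.49 to -0.24 and -0.48 to 0.01; Trp63, Dsg3, Dsc3 and Lor not above background), and hepatocyte and hepatoma markers -1.35 over 12 of 13 (2 higher). With the lost spots left out, 10 T cell, 10 macrophage and 1 of the hepatocyte and hepatoma markers had a higher mean at day 15. In each of these lists 0 genes passed with limma after adjustment. Their part in the differences of the 8 genes was not tested.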

How the data were processed

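Each tumor was measured on 1 array of 2 colours. Per the file headers, the deposited intensity values (mean spot signal and median local background per dye) come from Agilent Feature Extraction 9.1.3.1, not normalized; the processed intensity was spatially detrended and dye-normalized there, with LOWESS settings and global background correction off. The deposited log10 ratios (processed Cy5 over Cy3) of the authors' value table differed by 0 from those in the scanner files.

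With limma 3.58.1 under R 4.3.3, intensities were corrected by normexp (offset 50) and log2 ratios normalized by loess, with controls and outlier spots at weight 0 and then left out; spots of a probe were averaged. Of 41174 probes, 23374 were named by accession, 6733 by symbol, 2919 by older symbol (RefSeq, GRCm38.p6) and 8148 kept the array's name. A gene was represented by its brightest probe. Days were compared on 23065 probes (15802 genes) and tumor with reference on 24220 probes (16305 genes) well above background on at least 3 arrays in Cy5, or in either dye, with lmFit and eBayes, 2-sided, adjusted over probes; single dyes were quantile normalized. The lost area was found in blocks of 8 rows by 4 columns whose Cy3 signal was over 0.5 log2 units below the other arrays. The fit was tested on simulated data. Members and lists were chosen with earlier results of these data known, and the named genes by a rule: from each list, the 3 of smallest p between the days and the 3 of largest absolute ratio, and the 3 most like each member above background in Cy5 on 6 arrays; other names were chosen after their values were seen. Alternatives were other background, scaling, filters and signals, a position block, and each tumor left out. Some marker genes are not reported here.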

Additional observations from a re-analysis of the deposited data

How the results depend on the processing

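Members past the threshold between the days numbered 0 under all alternatives run. Over all genes the count was 9, against 1 with probes above background on all 6 arrays, 0 in the tumor dye alone, 4 with array position as a block, and 3 to 26 when 1 tumor was left out (26 without 307). Differences that changed sign were those of Xbp1 and Tnfrsf13b, 0.55 and 0.21 with all spots: Xbp1 was -0.0445 after median centring, and Tnfrsf13b was -0.0413 there, -0.0337 in the tumor dye alone and -0.12 to 0.63 when 1 tumor was left out (lowest without 313). After median centring the median of all genes was -0.30. The median of the 8 genes ran from 0.13 (without tumor 312) to 0.94 (without 307), and was 0.22 with the lost area left out. Pou2af1 was 0.53 with the scanner's processed signals and with the authors' values, and Mzb1 1.18 in both; the cause was not tested. Against the reference 6 to 8 of the members passed under all alternatives, and 8 without any single tumor. The slide could not be fitted as a block, since each day lay on 1 slide. No paired analysis was possible because the tumor numbers differ between the days. With 3 tumors per day, the number of arrays limits the precision.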

Other observations

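Genes whose ratios over the 6 tumors were most like those of a member were looked for among 5050 genes with ratios spanning at least 1 on the log2 scale. Pearson's r is given as a description, since the tumors share slides by day. For Mzb1 they were Jchain (r = 0.994), Mtarc1 (0.994), an enzyme of the outer mitochondrial membrane, and a transcript named AF210281 on the array (0.989). The Mzb1 ratio of tumor 312 used here includes its 2 spots in the lost area (1.54, or 1.81 without them). For Pou2af1 they were Pde3a, a phosphodiesterase gene (0.992), Vwf, the von Willebrand factor gene of endothelium (0.991), and Smoc2, a matrix protein gene (0.991). For Tnfrsf17 they were Bmper (0.99), Dmrt2 (0.989) and a transcript named only by accession (0.988). For Tnfrsf13b they were Man1a (0.998), Akt2 (0.997) and an unnamed probe (0.996), for Prdm1 Scrn3 (0.993), Sh3yl1 (0.989) and Rtkn (0.986), and for Sdc1 Nol3 (0.994), Aldh1l2 (0.978) and Timp1 (0.975), the inhibitor of metalloproteinases. The number of genes with r over 0.99 ran from 1 (Prdm1, Tnfrsf17 and Sdc1) to 10 (Tnfrsf13b).

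The lowest of the 10 Mzb1 spots was in the same print position on the arrays of tumors 312, 303 and 318, at -0.016, 2.80 and 1.47, against means of 1.71, 3.64 and 2.84 of the other 9 spots. On the array of tumor 313 the lowest spot, at 3.34, was in another position, against a mean of 4.38. None of the 8 genes had a tumor standing apart from the other 5 by Dixon's test at 95%. The test did not flag the damaged spots of Xbp1 and Irf4 in tumor 312 either, so it cannot show that no tumor stood apart.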
